A study of Mus musculus with 12 samples.

Results

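The 27 genes described here encode the enzymes of cholesterol synthesis (18 genes), 3 regulators of those enzymes, and the core enzymes of fatty acid synthesis (6 genes). They were picked by symbol from the 24982 gene symbols in the files as known genes of these routes, and all 27 were found. All 27 are protein-coding. Polyadenylated RNA was sequenced from splenic B lymphocytes that were taken at an age of 6 weeks. There were 12 libraries, 4 for each of 3 genotypes: wild-type C57BL/J6 (WT), mice with the Eμ-Myc transgene, and mice with the Eμ-Myc transgene and a knockout of PRPS2 (Eμ-Myc;PRPS2 KO, called the knockout group). The Eμ-Myc transgene places Myc under the enhancer of the immunoglobulin heavy chain gene, so that Myc is raised in the B cell lineage. PRPS2 makes phosphoribosyl pyrophosphate, the sugar building block of nucleotides. Every knockout library also carried the transgene, so there was no group with the knockout alone. The study set Eμ-Myc against WT to catalogue the genes that Myc deregulates, and the knockout group against Eμ-Myc to ask whether loss of PRPS2 touches that programme.

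Cells build cholesterol and fatty acids from the same cytosolic acetyl-CoA, which Acly releases from citrate. The cholesterol route joins acetyl-CoA units to mevalonate, turns mevalonate into isoprene units, couples these to squalene, and closes and trims squalene to cholesterol. The fatty acid route extends acetyl-CoA through malonyl-CoA to palmitate, which is then elongated and desaturated. Both routes are switched on by the SREBP transcription factors, encoded by Srebf1 and Srebf2, which stay in the endoplasmic reticulum with Insig proteins while sterols are plentiful. Dividing lymphocytes need both products for membranes.

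Summed coverage was 1277305.5 to 1885768.9 in the 12 libraries, and 14900 to 16231 genes were above 0. All values below are scaled coverage, which is the deposited coverage divided by a factor per library. The files give no read numbers and the depth is unknown, so errors rest on the spread between libraries. Prps2 was between 104 and 142 in WT, between 201 and 281 in Eμ-Myc but between 15.4 and 18.8 in the knockout libraries, and Myc was at 238 to 352 in WT against 1131 to 3121 in the 8 transgenic libraries. The knockout libraries formed 2 pairs. Correlations were taken over the log2 values of the 12700 genes tested between Eμ-Myc and WT. Knockout libraries 1 and 2 correlated with r = 0.988 and libraries 3 and 4 with r = 0.995. The 4 correlations across these pairs were 0.880 to 0.916, against 0.958 to 0.993 in WT and 0.974 to 0.991 in Eμ-Myc. The defining B cell genes Cd79a, Cd79b, Ms4a1 and Pax5 were present in every library, and 1 of 7 B cell markers, Cd22, was lower in Eμ-Myc than in WT. The neutrophil gene S100a9 was between 599 and 14659. The summed level of 7 myeloid markers was 25863, 8192, 8562 and 14675 in WT libraries 1 to 4, 9850.0, 17006, 6524 and 5568 in Eμ-Myc and 15777, 11327, 2869 and 1245 in knockout libraries 1 to 4, and none of the 7 was called in any comparison. The summed level of 7 T cell markers was between 333 and 1847 in WT, between 73.3 and 104.8 in Eμ-Myc, 391 and 433 in knockout libraries 1 and 2, and 10.7 and 9.81 in knockout libraries 3 and 4. In bulk samples of this kind, fewer cells of a type and less RNA per cell cannot be told apart.

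Promoters were searched for 3 motifs, which are the E-box that Myc binds, a sterol response element of the kind SREBPs bind, and the CCAAT box bound by NF-Y, a partner of SREBPs. Fasn and Mvk are shown because both were higher in Eμ-Myc and hold several CCAAT boxes, and Hmgcs1 because it holds the sterol element and did not pass the test. The 250 bases before each RefSeq start (GRCm38.p6) are written 5′ to 3′, with CCAAT (or ATTGG) and the sterol element in capitals.
Fasn, chr11:120824548-120824797, minus strand: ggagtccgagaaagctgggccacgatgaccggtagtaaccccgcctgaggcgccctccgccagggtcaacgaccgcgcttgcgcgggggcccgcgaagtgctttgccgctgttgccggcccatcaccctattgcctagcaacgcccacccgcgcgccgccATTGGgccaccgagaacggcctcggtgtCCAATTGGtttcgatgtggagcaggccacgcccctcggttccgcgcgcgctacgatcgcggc
Mvk, chr5:114444019-114444268, plus strand: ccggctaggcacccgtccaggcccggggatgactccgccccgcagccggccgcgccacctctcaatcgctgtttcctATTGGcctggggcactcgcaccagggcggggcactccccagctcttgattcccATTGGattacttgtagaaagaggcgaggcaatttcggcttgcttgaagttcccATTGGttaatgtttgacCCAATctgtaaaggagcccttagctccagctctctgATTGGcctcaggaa
Hmgcs1, chr13:119690101-119690350, plus strand: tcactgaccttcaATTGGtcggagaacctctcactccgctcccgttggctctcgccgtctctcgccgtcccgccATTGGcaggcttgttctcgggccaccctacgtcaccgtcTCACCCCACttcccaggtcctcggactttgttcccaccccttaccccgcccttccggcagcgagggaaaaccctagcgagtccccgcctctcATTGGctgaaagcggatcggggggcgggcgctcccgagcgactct
Of the 27 genes, 22 were matched in the RefSeq promoter table. Fdps, Fdft1, Sqle, Scd1 and Scd2 were not. Motifs were searched on both strands in windows from 250 bases before to 50 bases after the start. CCAAT, which reads as ATTGG on the other strand, was in 19 of the 22 genes (86.4%), against 41.1% of the 27025 genes in the table. This background, used for all 3 motifs, was not limited to genes expressed in these cells. All 22 were expressed enough to be tested, so the 2 sets are unlike. In the Fasn promoter 2 of its 3 CCAAT matches overlap, in the capitals CCAATTGG. The E-box CACGTG was in 4 of 22 (Hsd17b7, Sc5d, Dhcr7 and Insig1), or 18.2% against 8.09%, and TCACNCCAC, one form of the sterol element, was in Hmgcs1 alone, or 4.55% against 1.44%. None of the 4 genes with an E-box in this window was higher in Eμ-Myc by the test used below. The windows of Elovl6, Acaca and Acat2, 3 genes that were higher in Eμ-Myc, held none of the 3 motifs; the Acaca window lies at a start inside the annotated gene, so its first start was not searched.

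Relative to WT, Eμ-Myc B cells had more RNA of 5 of the 6 fatty acid enzymes and less RNA of both SREBP genes, while the cholesterol enzymes went in different directions. Differences were tested with limma on log2(scaled coverage + 0.5), and a gene is called where its adjusted p over all genes of the comparison was under 0.05. Of the 27 genes 15 were called, 11 higher and 4 lower. Over all 12700 genes tested 56.2% were called, 28.3% higher and 27.9% lower, so the count for the 27 genes (55.6%) was near that of all genes. The median log2 fold change of the 27 genes was 0.11, against -0.07 over all genes tested. Scaling by total coverage shifted the median of all genes by -0.12 and gave 9 higher and 6 lower among the 27. Over all genes it gave 3057 higher and 4227 lower. Groups did not overlap for 10 genes that were higher and 3 that were lower, where 52.3% of all genes did not overlap, 26.8% higher and 25.5% lower. All 8 cell cycle markers were also called higher, with a summed level of 425 to 533 in WT and 1909 to 2574 in Eμ-Myc. All 7 T cell markers were called lower. Of 5 plasma cell markers 2 were called lower, Prdm1 (log2 fold change -1.14, adjusted p = 0.00226) and Xbp1 (-0.63, adjusted p = 0.037), and none higher. The part of all these markers in the values below was not tested.

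**Figure D1:**
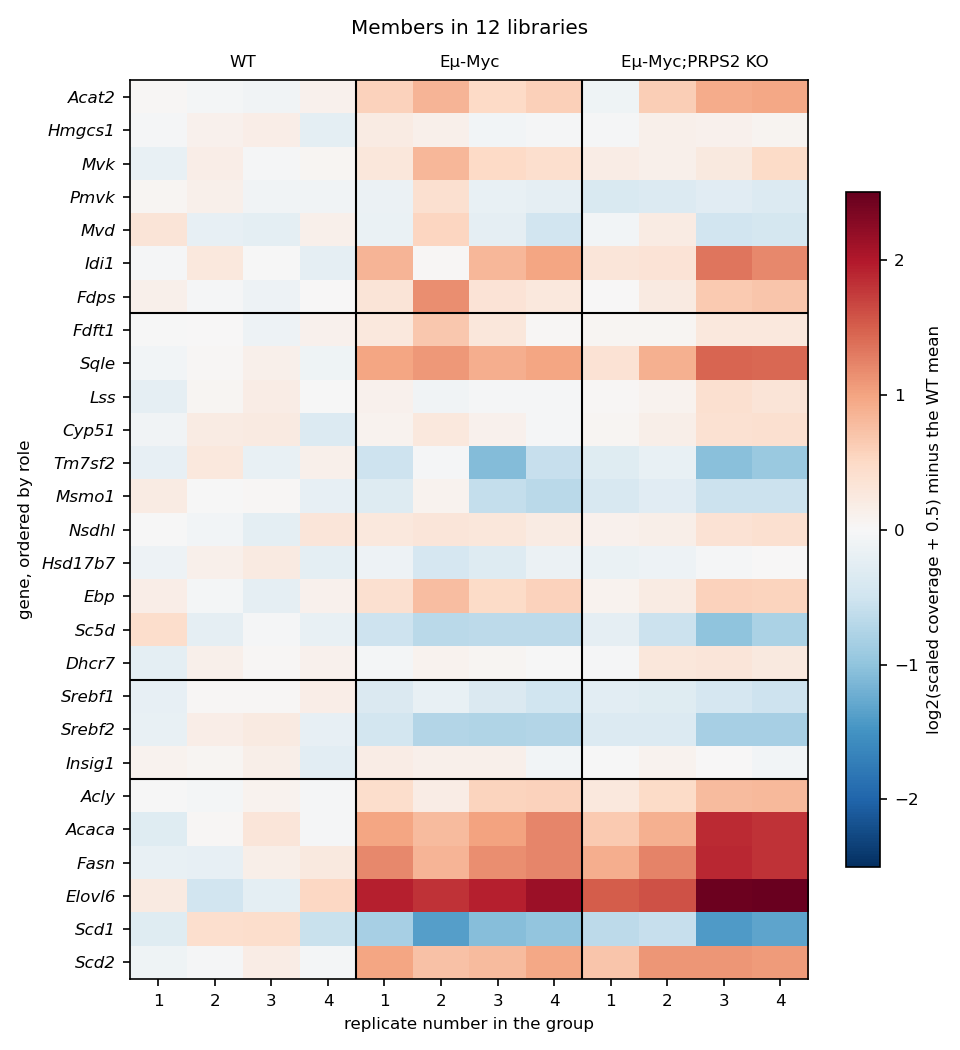
Heat map of the 27 genes in the 12 libraries. Rows are genes, with black lines between the mevalonate and isoprene steps, the steps from squalene to cholesterol, the regulators and the fatty acid enzymes; columns are the 4 libraries of each group, and colour is log2(scaled coverage + 0.5) minus the WT mean of that gene. Acaca, Fasn, Elovl6 and Scd2 are red in all 8 transgenic libraries, Scd1 and Srebf2 are blue, and knockout libraries 3 and 4 differ from 1 and 2 in most of these rows.

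All 6 fatty acid enzymes were called, 5 higher and 1 lower, where 56.2% of all genes tested were called. Their median log2 fold change was 0.94. Acly, which makes cytosolic acetyl-CoA from citrate, was at 240.3, 235, 258 and 238 in WT libraries 1 to 4 and at 327, 276, 356 and 362 in Eμ-Myc. The groups did not overlap, and Acly rose 1.35-fold (95% interval 1.15 to 1.60; adjusted p = 0.00693), but it missed the threshold when libraries were scaled by total coverage (log2 fold change 0.32, adjusted p = 0.0675). Acaca, the acetyl-CoA carboxylase that commits carbon to fatty acids, was at 4.56, 5.93, 7.24 and 5.69 in WT and at 11.9, 10.4, 12.2 and 14.2 in Eμ-Myc. Its rise was 2.01-fold (1.53 to 2.63; adjusted p = 0.00113), and 49.1% of the 50-base words of its transcripts are shared with the gene model Gm5182, between which reads could be split. Fasn, the synthase that builds palmitate, was at 23.0, 22.9, 29.1 and 31.4 in WT and at 61.5, 48.0, 59.4 and 62.4 in Eμ-Myc. Every Eμ-Myc library was above every WT library, and the rise was 2.16-fold (1.73 to 2.70; adjusted p = 0.000206).

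Elovl6 (chr3:129532355-129638495 in GRCm38, plus strand), which elongates palmitate to stearate, had the largest fold change of the 27 genes in this comparison. It was at 4.73, 2.73, 3.27 and 5.92 in WT and at 16.8, 15.3, 16.8 and 19.3 in Eμ-Myc. The WT libraries were all low, and the rise was 3.89-fold (2.73 to 5.52; adjusted p = 0.000114). The stearoyl-CoA desaturases Scd1 and Scd2, which put the double bond into oleate and palmitoleate, moved in opposite directions. They lie near each other, Scd1 at chr19:44394455-44407879 on the minus strand and Scd2 at chr19:44293674-44306864 on the plus strand. Scd1 was at 204, 335, 342 and 171 in WT and at 141, 96.5, 119 and 127 in Eμ-Myc. It fell to 0.477 of the WT level (0.329 to 0.692; adjusted p = 0.00456), and WT libraries 2 and 3 held the highest values. Those 2 WT libraries also had the highest summed B cell markers (12024 and 10666, against 6723 and 6257 in WT libraries 1 and 4), a link that was not tested. Scd2 was at 46.1, 48.8, 56.4 and 47.7 in WT and at 98.9, 83.0, 86.3 and 97.9 in Eμ-Myc. Its rise was 1.83-fold (1.56 to 2.15; adjusted p = 0.000135) and the groups did not overlap. Within a library, the ratio of Scd1 to Scd2 scaled coverage was 4.44, 6.87, 6.07 and 3.59 in WT and 1.43, 1.16, 1.38 and 1.29 in Eμ-Myc. The Scd1 and Scd2 transcripts share few 50-base words (3.0% of those of Scd1 are found in Scd2).

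**Figure D2:**
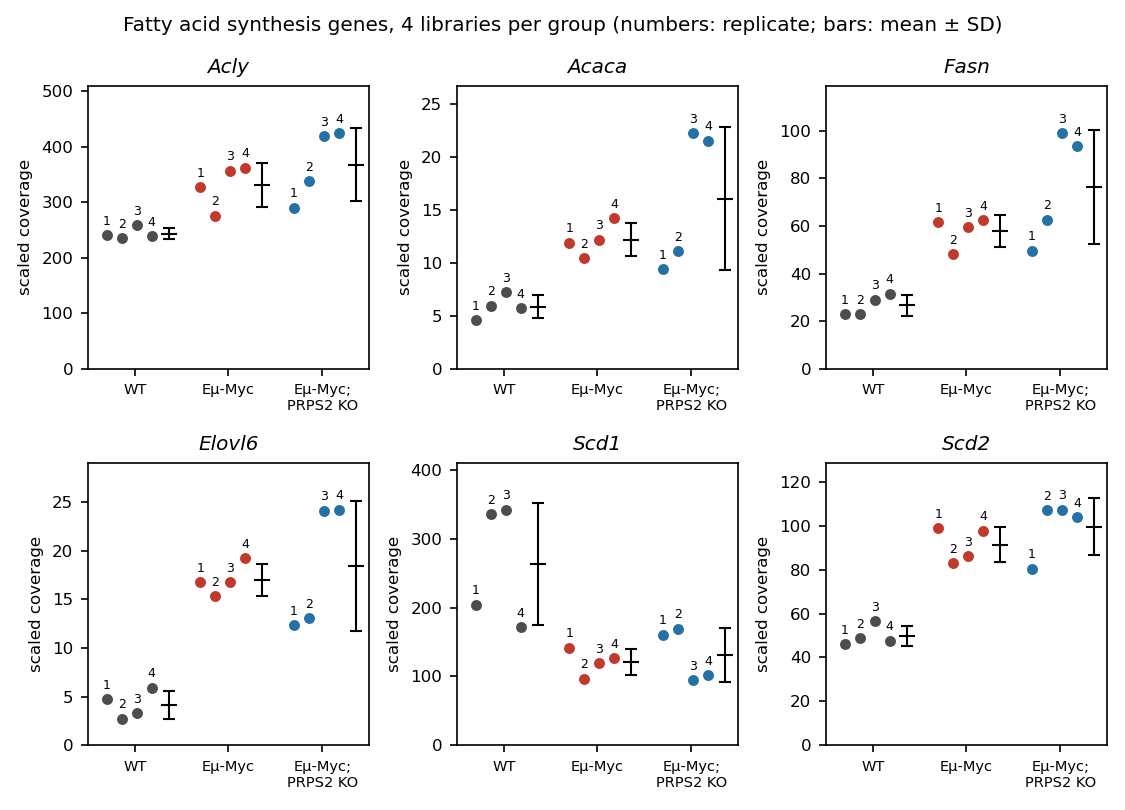
Scaled coverage (vertical axis, from 0) of the 6 fatty acid enzymes in WT, Eμ-Myc and Eμ-Myc;PRPS2 KO; each point is a library with its replicate number, and the bar is the mean ± SD of 4 libraries. Fasn lies between 22.9 and 31.4 in WT and between 48.0 and 62.4 in Eμ-Myc, Scd1 is lower in both transgenic groups, and knockout libraries 3 and 4 lie apart from 1 and 2 for Acaca, Fasn, Elovl6 and Scd1.

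Of the 7 enzymes from acetyl-CoA to farnesyl diphosphate, 4 were called higher and none lower, with a median log2 fold change of 0.51. The share called (57.1%) was near that of all genes tested (56.2%, with 28.3% higher and 27.9% lower). Acat2, the cytosolic thiolase that joins 2 acetyl-CoA, was at 15.4, 14.4, 14.1 and 16.0 in WT and at 22.4, 27.3, 21.4 and 22.9 in Eμ-Myc. It rose 1.55-fold (1.29 to 1.86; adjusted p = 0.00178). Part of this value is uncertain, since 11.7% of its 50-base words lie in Tcp1 on the opposite strand, a gene that was itself higher (log2 fold change 1.39, adjusted p = 6.26e-06), and whether counting used strand is not given in the sources used here; a further 40.7% are shared with Acat3, which was at or below 2.03 in every library. Mvk, mevalonate kinase, was at 21.2, 27.1, 23.8 and 25.0 in WT and at 29.4, 43.7, 34.3 and 32.5 in Eμ-Myc, and rose 1.42-fold (1.14 to 1.77; adjusted p = 0.0134). Its groups did not overlap, with Eμ-Myc library 2 highest. Idi1, which interconverts the 2 isoprene units, was at 3.73, 4.70, 3.77 and 3.19 in WT and at 7.26, 3.88, 7.18 and 8.04 in Eμ-Myc. The call (log2 fold change 0.67 ± 0.24 (SE), adjusted p = 0.0382) was lost when any of 6 of the 8 libraries was left out, with adjusted p of 0.0688 to 0.105, and Eμ-Myc library 2 lay within the WT range. Fdps, which makes farnesyl diphosphate, was at 97.8, 87.6, 82.3 and 90.6 in WT and at 112, 199.7, 114 and 108 in Eμ-Myc, where library 2 stood far above the others. Its call (log2 fold change 0.53 ± 0.19 (SE), adjusted p = 0.04) was lost without any single WT library or without Eμ-Myc library 3 (adjusted p 0.051 to 0.0903). Without Eμ-Myc library 2 the call was kept at a lower log2 fold change of 0.32 (adjusted p = 0.0142). Of Fdps, 57.3% of the 50-base words are shared with another annotated gene model, Gm43738. Idi1 shares 20% of its words with Gm13502.

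The other mevalonate enzymes did not pass the test. Hmgcs1, which condenses acetoacetyl-CoA with a further acetyl-CoA, was at 72.1, 78.5, 82.5 and 61.3 in WT and at 84.1, 80.0, 69.3 and 71.6 in Eμ-Myc, with log2 fold change 0.06, adjusted p = 0.706. The 2 ranges overlapped over most of their width. Pmvk, the kinase after Mvk, was at 70.1 ± 5.35 (SD, n = 4) in WT and 69.1 ± 15.5 in Eμ-Myc (-0.04, adjusted p = 0.825), and Mvd, the decarboxylase that yields isopentenyl diphosphate, was at 42.0 ± 8.13 and 40.7 ± 13.5 (-0.08, adjusted p = 0.778). Eμ-Myc library 2 held the highest value of the 8 libraries for Mvk, Pmvk, Mvd and Fdps. It also had the highest summed myeloid markers of the Eμ-Myc group (17006), a link that was not tested. Over the 8 libraries these markers were highest in WT library 1 (25863).

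Between squalene and cholesterol, 3 of 11 enzymes were called (27.3%, against 56.2% of all genes tested), 2 higher and 1 lower. Scaling by total coverage gave 2 higher and 3 lower. The 11 enzymes had a median log2 fold change of 0.02. Sqle, squalene epoxidase, which carries out the first oxygenation of the route, was at 13.2, 14.1, 15.2 and 12.9 in WT and at 27.7, 29.6, 26.2 and 27.9 in Eμ-Myc. The 4 values of each group lay close together, and the rise was 1.98-fold (1.68 to 2.34; adjusted p = 8.14e-05). Ebp, the sterol isomerase, was at 53.3, 45.7, 40.2 and 51.0 in WT and at 62.2, 80.5, 66.2 and 70.4 in Eμ-Myc, a rise of 1.47-fold (1.21 to 1.77; adjusted p = 0.00444). Sc5d, the desaturase of the step after Ebp, went the other way. It was at 44.6, 28.0, 32.1 and 28.6 in WT and at 22.6, 20.3, 20.7 and 20.6 in Eμ-Myc, a fall to 0.648 of the WT level (0.51 to 0.824; adjusted p = 0.00738), with WT library 1 the highest. The isomerase and the desaturase act one after the other in the route.

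The other 8 enzymes of this stretch were not called. The squalene synthase Fdft1 had a log2 fold change of 0.31, adjusted p = 0.0932, the lanosterol synthase Lss -0.01, adjusted p = 0.952, the lanosterol demethylase Cyp51 0.11, adjusted p = 0.569, and the last reductase Dhcr7 0.02, adjusted p = 0.873. Of the enzymes that remove the methyl groups of lanosterol, the sterol oxidase Msmo1 was at 41.1, 35.4, 36.4 and 30.8 in WT and at 28.5, 38.2, 23.6 and 22.4 in Eμ-Myc (-0.37, adjusted p = 0.0995). Without Eμ-Myc library 2, the only Eμ-Myc library within its WT range, Msmo1 was called lower (-0.52, adjusted p = 0.0116). The sterol reductase Tm7sf2 was at 7.47, 10.4, 7.54 and 9.45 in WT and at 5.86, 8.40, 3.79 and 5.62 in Eμ-Myc (-0.56, adjusted p = 0.0687), and was also called lower without that library (-0.73, adjusted p = 0.0195). The dehydrogenase Nsdhl (0.26, adjusted p = 0.12) and the ketoreductase Hsd17b7 (-0.25, adjusted p = 0.229) had overlapping groups. Nsdhl was called higher without WT library 4 (0.36, adjusted p = 0.0321), and Fdft1 without Eμ-Myc library 4 (0.40, adjusted p = 0.0472). With all libraries kept, scaling by total coverage called Msmo1 (-0.48, adjusted p = 0.0257) and Tm7sf2 (-0.67, adjusted p = 0.0307) lower. A replicate block called Tm7sf2 lower (adjusted p = 0.0366). Library quality weights called Msmo1, Tm7sf2 and Hsd17b7 lower (adjusted p = 0.00156, 0.00399 and 0.025) and Nsdhl and Fdft1 higher (adjusted p = 0.00807 and 0.0366). Of the 50-base words of Tm7sf2, 19.5% lie in Vps51 on the same strand, and of those of Fdft1, 19.9% lie in Ctsb on the opposite strand.

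Both SREBP genes were lower. Srebf2, whose product acts mostly on the cholesterol enzymes, was at 108, 138, 144 and 107 in WT and at 89.9, 73.9, 72.6 and 74.2 in Eμ-Myc. It fell to 0.63 of the WT level (0.514 to 0.773; adjusted p = 0.0023) and the groups did not overlap. Srebf1, whose product acts more on fatty acid enzymes, was at 154, 181, 181 and 201 in WT and at 139.7, 157, 139 and 126 in Eμ-Myc, where library 2 reached above WT library 1. Its fall, to 0.783 (0.66 to 0.929; adjusted p = 0.0217), missed the threshold without WT library 2, 3 or 4 or without Eμ-Myc library 3 or 4 (adjusted p 0.0504 to 0.0695). Insig1, itself a known SREBP target, was at 29.8, 28.9, 30.9 and 23.2 in WT and at 32.1, 30.7, 30.8 and 26.6 in Eμ-Myc, with log2 fold change 0.09, adjusted p = 0.523. Its ranges overlapped.

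**Figure D3:**
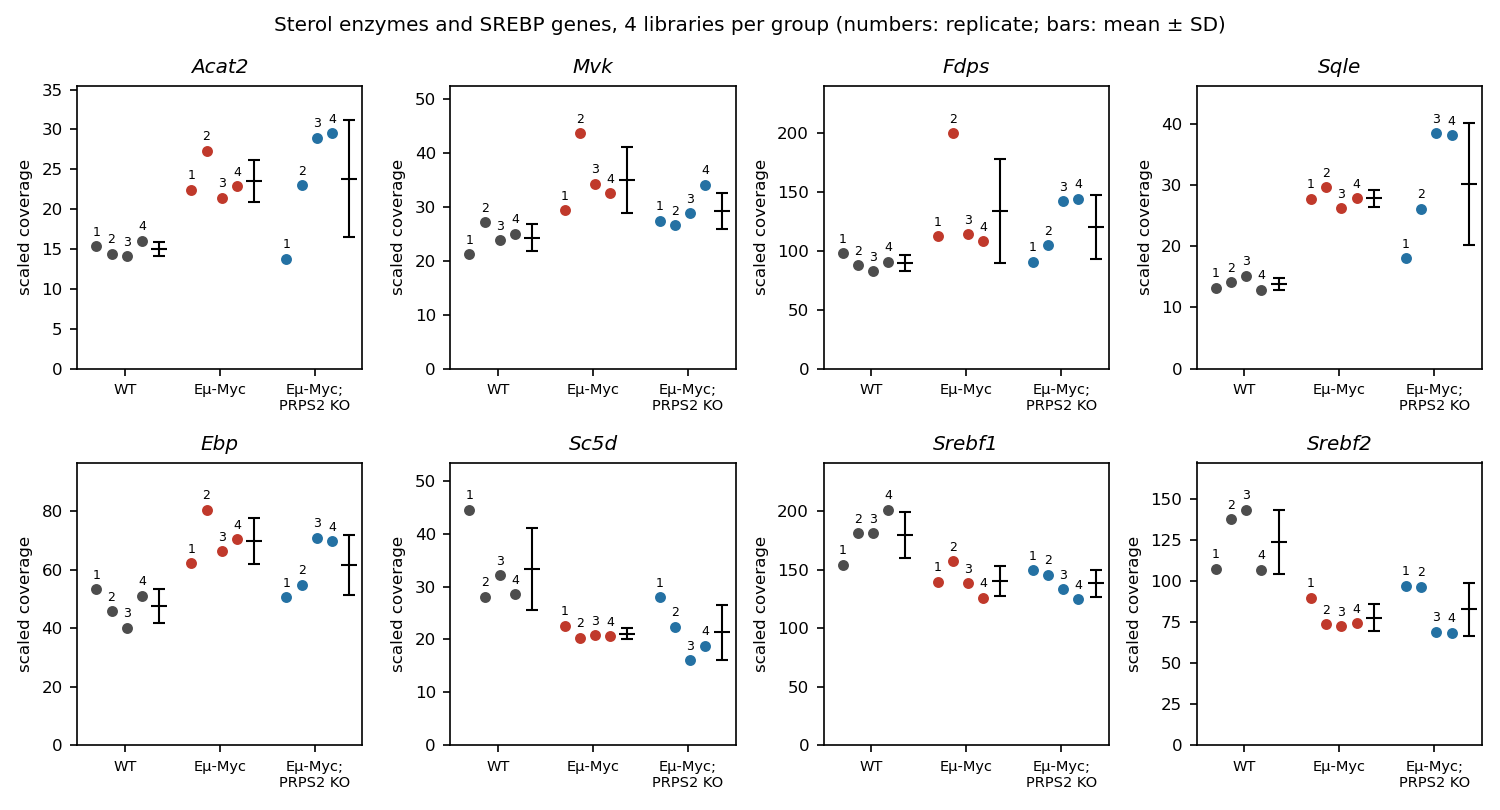
Scaled coverage (vertical axis, from 0) of 6 cholesterol enzymes and the 2 SREBP genes in the 3 groups; each point is a library with its replicate number, and the bar is the mean ± SD of 4 libraries. Sqle lies between 12.9 and 15.2 in WT and between 26.2 and 29.6 in Eμ-Myc, Sc5d and Srebf2 are lower in Eμ-Myc than in every WT library, and Eμ-Myc library 2 stands above the rest of its group for Fdps.

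Between the knockout group and Eμ-Myc, none of the 27 genes was called. Prps2 was the only called gene of 12515 tested (0.00799%), with log2 fold change -3.80 and adjusted p = 1.42e-05. At an unadjusted p under 0.05, 121 genes (0.967%) and none of the 27 passed. That share is below the 0.05 that would pass if no gene differed, so the test was conservative here. The lack of calls therefore does not show equal levels. Of the 27 genes 14 had a value above 0 and 13 below, with a median log2 fold change of 0.02, against -0.04 over all genes tested. The groups overlapped for all but Pmvk, where 1.59% of all genes did not overlap, 0.911% higher and 0.679% lower. Of the 5 genes with the smallest p, Pmvk was at 63.0, 92.1, 61.5 and 59.6 in Eμ-Myc and at 53.6, 54.8, 57.2 and 55.3 in the knockout group. The knockout values were tightly grouped below all 4 Eμ-Myc values, and the fold was 0.814 (0.641 to 1.03; adjusted p = 1). The other four were not called either, with folds of 0.843 for Mvk (0.663 to 1.07), 1.27 for Fasn (0.879 to 1.84), 1.13 for Dhcr7 (0.936 to 1.36) and 1.16 for Lss (0.894 to 1.51). The 95% intervals were wide, and over the 27 genes they reached from a fold of 0.597 for Tm7sf2 to 1.98 for Acaca.

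Knockout libraries 3 and 4 differed from 1 and 2 in several genes that had been called in Eμ-Myc. Acaca was at 9.41, 11.1, 22.3 and 21.5 in knockout libraries 1 to 4, around the Eμ-Myc values of 11.9, 10.4, 12.2 and 14.2. Fasn was at 49.6, 62.6, 99.1 and 93.7 and Elovl6 at 12.3, 13.1, 24.2 and 24.3. For Acaca, Fasn and Elovl6, libraries 3 and 4 lay above every Eμ-Myc library, while library 1 for Acaca and libraries 1 and 2 for Elovl6 lay below every one. Sqle had a like split, at 17.98, 26.1, 38.5 and 38.1, and Acat2 was at 13.8, 23.0, 28.9 and 29.5, with library 1 below the lowest WT library. Scd1 went the other way, at 160.4, 169, 93.9 and 101, and so did Srebf2, at 97.3, 96.8, 69.2 and 68.7. Pmvk, at 53.6 to 57.2, and Insig1, at 26.6 to 29.9, showed no such split. The summed cell cycle markers were also highest in libraries 3 and 4 (1187, 1572, 3217 and 3230.4), and the summed myeloid markers were lowest in libraries 3 and 4, where the T cell genes Cd3e and Cd5 were at or near 0. The summed level of 5 plasma cell markers was 507, 589.5, 234 and 261, and Jchain, which links secreted antibodies, was at 189, 232, 1.91 and 2.32. The part of all these markers in the values was not tested. With knockout libraries 1 and 2 left out, a choice made after this split was seen, 4 of the 27 genes were called against Eμ-Myc, all higher: Acaca (0.83, adjusted p = 0.0117), Fasn (0.74, adjusted p = 0.0105), Elovl6 (0.50, adjusted p = 0.0319) and Sqle (0.45, adjusted p = 0.0235), while 25.7% of all genes were called. With libraries 3 and 4 left out none of the 27 was called, Fasn had a log2 fold change of -0.05, and 2.36% of all genes were called. Library quality weights, which gave libraries 1 and 2 weights of 0.0855 and 0.131, called 13 of the 27 genes, 12 higher and 1 lower, where 57.8% of all genes were called.

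Against WT, all 6 fatty acid enzymes were called in the knockout group as well, 5 higher and Scd1 lower, though Acaca, Acly and Scd1 lost their calls when any of several single libraries was left out. Eμ-Myc and the knockout group share the WT libraries, so both comparisons move with them. All 8 cell cycle markers were called higher here too, and none of the 7 T cell markers was called, although all 7 were below 0 (median log2 fold change -3.27, against -3.06 in Eμ-Myc) and 6 had an unadjusted p under 0.05; their part was not tested. Of the 27 genes 11 were called, 6 higher and 5 lower, where 31.4% of 12692 genes were called, 19.3% higher and 12% lower. Median-of-ratios scaling gave 6 higher and 3 lower, where 2307 of all genes were higher and 1487 lower. The median log2 fold change was 0.21, against -0.09 over all genes tested, and the groups did not overlap for 7 higher and 6 lower genes, where 38.8% of all genes did not, 21.9% higher and 16.9% lower. Elovl6 rose 4.02-fold (2.38 to 6.77; adjusted p = 0.01), Fasn 2.75-fold (1.87 to 4.05; 0.0102) and Scd2 1.99-fold (1.61 to 2.45; 0.00912). These 3 were called in every alternative that tested them; Elovl6 was too low for the filter of at least 10 in every library. Scd2 was at 80.4, 107, 107 and 104 in knockout libraries 1 to 4, all above the highest WT value of 56.4. Acaca (log2 fold change 1.30 ± 0.32 (SE), adjusted p = 0.0261), Acly (0.58, adjusted p = 0.0269) and Scd1 (-0.99, adjusted p = 0.0419) were called with all libraries in the fit. Without any single WT library, or without knockout library 3 or 4, Acaca and Acly missed the threshold (adjusted p 0.0574 to 0.0791), and so did Scd1 except without WT library 4 (0.0722 to 0.113). Without knockout libraries 3 and 4 together, the log2 fold change was 0.77, adjusted p = 0.0779 for Acaca, 0.37, adjusted p = 0.0738 for Acly and -0.61, adjusted p = 0.264 for Scd1. Acly was at 289.5, 338, 418 and 424 in the knockout group, and the Scd1 to Scd2 ratio was 1.99, 1.58, 0.874 and 0.975.

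Of the cholesterol enzymes, Sqle was called higher in the knockout group than in WT (log2 fold change 1.04 ± 0.25 (SE), adjusted p = 0.0251), and Pmvk (-0.34, adjusted p = 0.0372) and Msmo1 (-0.44, adjusted p = 0.039) were called lower. The Sqle call was lost without any single WT library or without knockout library 3 or 4 (adjusted p 0.0576 to 0.073), and without both knockout libraries 3 and 4 the log2 fold change was 0.63, adjusted p = 0.0786. Msmo1 was at 26.9, 29.4, 24.6 and 24.6 in the knockout libraries, all below the lowest WT value of 30.8. Srebf1 (-0.37, adjusted p = 0.0476) and Srebf2 (-0.59, adjusted p = 0.0411) were called lower, and Srebf1, at 149.5, 146, 133 and 125, lay below every WT library. Without knockout libraries 3 and 4 the log2 fold change of Srebf2 was -0.34, adjusted p = 0.213. The other 16 genes did not pass, among them Acat2 (0.60, adjusted p = 0.0833), Idi1 (0.79, adjusted p = 0.0689), Fdps (0.40, adjusted p = 0.0949), Ebp (0.36, adjusted p = 0.0953) and Sc5d (-0.64, adjusted p = 0.0554). Mvk (0.26, adjusted p = 0.141), Nsdhl (0.25, adjusted p = 0.213), Cyp51 (0.25, adjusted p = 0.255), Lss (0.21, adjusted p = 0.372), Dhcr7 (0.20, adjusted p = 0.263) and Fdft1 (0.16, adjusted p = 0.279) had values above 0, and Tm7sf2 (-0.62, adjusted p = 0.0869), Mvd (-0.19, adjusted p = 0.437) and Hsd17b7 (-0.08, adjusted p = 0.723) below. Hmgcs1 (0.07, adjusted p = 0.632) and Insig1 (0.00, adjusted p = 0.978) were nearest to 0. The count of 11 rested on single libraries. It was 3 without WT library 1, 2 or 3 or without knockout library 3 or 4, where 684 to 1129 of all genes were called. It was 5 without WT library 4, where 1629 of all genes were called. Where knockout library 1 or 2 was dropped it was 16 and 9, with 6995 and 4460 of all genes. With all libraries 3981 of all genes were called, so the count for the 27 genes moved with that of all genes. In each setting that left 3 genes all 3 were higher, and with no filter (6 genes) none was lower either. Pmvk, Msmo1, Srebf1, Srebf2 and Scd1 were thus not called in those settings. Lower calls over all genes fell in the same way. The 2453 higher and 1528 lower calls became 933 and 196 without WT library 1, and 632 and 52 without WT library 2. Without knockout libraries 1 and 2 the count of 11 became 17, where 69.7% of all genes were called. Without libraries 3 and 4 it became 3, where 11.8% were called. These 3 were Fasn (log2 fold change 1.07), Elovl6 (1.55) and Scd2 (0.90).

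**Figure D4:**
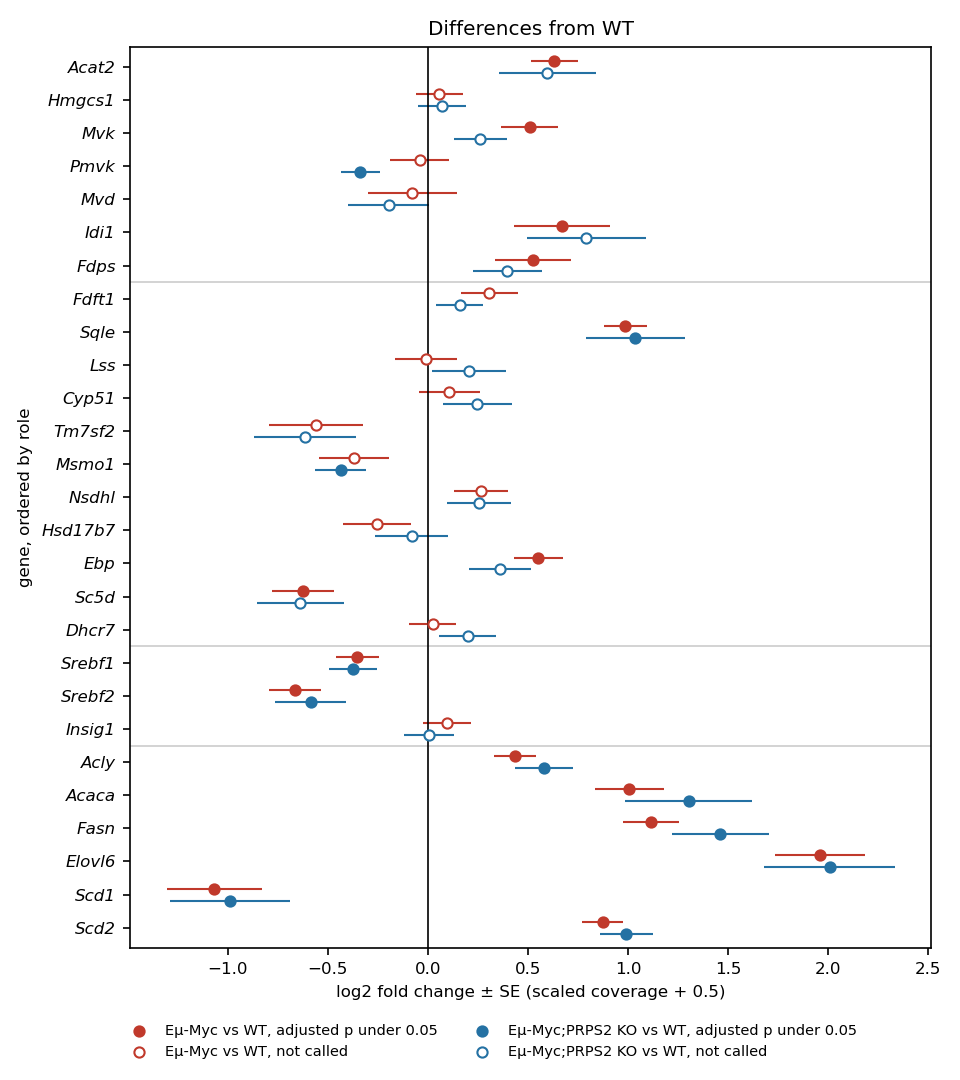
Log2 fold change ± SE (horizontal axis) of the 27 genes in Eμ-Myc against WT (red) and in Eμ-Myc;PRPS2 KO against WT (blue), from limma fits that share the 4 WT libraries; filled points passed an adjusted p of 0.05 and grey lines part the groups of genes. Elovl6 lies near 2 in both, Scd1 near -1, and the error bars of Acaca, Fasn and Sqle are wider for the knockout group.

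Lists of neighbouring pathways were read in the same fits. Of 15 genes for sensing, uptake, storage and export of sterols, 1 was called higher and 8 lower in Eμ-Myc (median log2 fold change -0.28, against -0.07 over all genes), and 1 higher and 2 lower in the knockout group against WT. Mylip, the ubiquitin ligase that removes lipoprotein receptors, was at 80.6, 126, 129 and 92.6 in WT and at 45.8, 36.2, 35.1 and 33.3 in Eμ-Myc (-1.48, adjusted p = 0.00013). Insig2, the second Insig gene, was lower (-0.75, adjusted p = 0.000352) and so was the cholesterol exporter Abcg1 (-0.995, adjusted p = 0.000641). Scap, which escorts SREBPs out of the endoplasmic reticulum, was the gene that rose, from 74.4, 75.7, 80.3 and 80.9 in WT to 119, 105, 119.6 and 122 in Eμ-Myc (0.58, adjusted p = 0.000482). The transcripts of Srebf1 and Srebf2 and that of their escort thus differed from WT in opposite directions. Against WT in the knockout group, Mylip (-1.63, adjusted p = 0.0154) and Insig2 (-0.82, adjusted p = 0.01) were called lower and Scap (0.73, adjusted p = 0.01) higher, and Abcg1 was not called (-1.07, adjusted p = 0.074).

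Of 12 genes of the isoprenoid branches, which draw on the same isoprene units, 6 were called higher and 2 lower in Eμ-Myc (median log2 fold change 0.45), and 6 and 1 in the knockout group against WT. Pdss1, which builds the side chain of ubiquinone, was at 8.13, 7.998, 8.73 and 7.06 in WT, at 27.8, 29.9, 36.4 and 30.2 in Eμ-Myc and at 15.9, 18.7, 47.4 and 43.5 in the knockout group (1.89, adjusted p = 7.35e-06 for Eμ-Myc; 1.75, adjusted p = 0.018 for the knockout group). All 8 transgenic libraries were above WT. Nus1, a subunit of the enzyme that makes dolichol precursors (0.59, adjusted p = 0.000533), and Rabggtb, a subunit of the transferase that prenylates Rab proteins (0.86, adjusted p = 0.00136), were also higher in Eμ-Myc. Ggps1, which makes geranylgeranyl diphosphate from the product of Fdps, was at 174, 194, 196 and 182 in WT and at 123, 119, 104 and 116 in Eμ-Myc, and was lower (-0.69, adjusted p = 0.000223). All of these were called in the same direction against WT in the knockout group, with log2 fold changes of 0.70 for Nus1, 0.86 for Rabggtb and -0.68 for Ggps1.

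Of 21 further genes of fatty acid synthesis, elongation, desaturation and activation, 8 were called higher and 4 lower in Eμ-Myc, with a median log2 fold change of 0.20. Left out were Me1, which fell below the filter, and Acacb, which met it through the Eμ-Myc libraries alone. Mecr, the reductase of mitochondrial fatty acid synthesis, was at 22.8, 23.0, 23.1 and 26.9 in WT and at 45.2, 63.1, 51.4 and 53.5 in Eμ-Myc (1.13, adjusted p = 7.91e-05). The acyl-CoA synthetase Acsl5 (0.79, adjusted p = 0.000138) and the desaturase Fads1 (0.81, adjusted p = 0.000655) were higher too. Acacb, the second acetyl-CoA carboxylase, was at 0.083, 0.0941, 0.0992 and 0.455 in WT and at 1.77, 1.57, 2.49 and 1.65 in Eμ-Myc, all low values, and since no WT library reached the filter no test is given. In the knockout group against WT, 5 of 21 were called higher and 1 lower, or 4 and 0 with scaling by total coverage, and Mecr (1.17, adjusted p = 0.0226), Acsl5 (0.87, adjusted p = 0.0204) and Fads1 (0.86, adjusted p = 0.0127) were among the higher ones. Of 19 genes of fatty acid oxidation, the route that breaks fatty acids down, 9 were called higher and 1 lower in Eμ-Myc (median log2 fold change 0.15), or 6 and 2 with scaling by total coverage, and 4 were called higher in the knockout group. Hadh, the dehydrogenase of the third step, was at 37.3, 46.8, 43.3 and 43.1 in WT and at 84.9, 94.3, 91.1 and 98.8 in Eμ-Myc (1.11, adjusted p = 3.01e-05). The electron carrier subunit Etfa (0.83, adjusted p = 0.000188) and the dehydrogenase Acads (0.70, adjusted p = 0.000755) were higher as well. The background for these 4 lists was 56.2% of all genes called in Eμ-Myc against WT, and 31.4% in the knockout group against WT. None of the genes of these lists was called between the knockout group and Eμ-Myc.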

How the data were processed

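Polyadenylated RNA of splenic B lymphocytes was made into directional libraries, per the labels' protocols. The authors deposited 1 file per library with a gene symbol and a coverage value (a signal with 1 decimal), per the labels and the values, and 91.6% of values over 0 had a fractional part. The submitters' processing notes name mm10, DESeq and R 4.3.3, with no role. The aligner and the counting are not given in the sources used here. The values are no counts, so a count test was not run.

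Libraries were scaled by trimmed means of log ratios (30% of ratios and 5% of mean values trimmed) over genes of at least 1 in every library. A gene was tested if 4 or more of the 8 libraries reached 1, with limma 3.58.1 in R 4.3.3, on log2(scaled coverage + 0.5), with a trended robust prior, two-sided, and Benjamini-Hochberg adjustment over all genes tested. Fold changes on this scale understate those of low genes. The steps were tested on simulated data. Figures were made with matplotlib 3.10.9. Sequences came from RefSeq (GRCm38.p6) and shared 50-base words from GENCODE transcripts (GRCm38, the build also called mm10).

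The rule for the 27 genes uses no measured value, but members and lists were chosen with earlier results of these data known. All 27 genes were named in both comparisons with WT; against Eμ-Myc, the 5 with the smallest p; from each of the 4 lists, at most 4 genes with the smallest adjusted p in Eμ-Myc against WT. Some genes of the lists are not reported here. The labels call the libraries biological replicates and give no batch, so p-values measure the spread between these libraries. Replicate numbers run from 1 to 4 in each group. Between Eμ-Myc and the knockout group, same-numbered libraries deviated together from their group means (r = 0.659, 0.192, 0.254 and 0.608), so the numbers were taken to pair them and a fit with a block was set beside the main one; this rests on the values alone, and libraries 2 and 3 correlated more with a library of another number (up to 0.608 and 0.601). Alternatives were 2 other scalings, pseudocounts of 0.1 and 2, no filter, at least 10 in every library, 1 fit over the 12 libraries, a replicate block, library quality weights, and leaving out each library; leaving out 2 knockout libraries was added after seeing the data.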

Additional observations from a re-analysis of the deposited data

Results flagged for a closer look

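In 4 of the 81 groups of 4 libraries (27 genes in 3 groups), 1 library lay apart from the other three by more than Dixon's 95% critical value for a group of 4; chance alone gives about 1 in 20 such groups. In Eμ-Myc, library 2 was at 92.1 for Pmvk, with the next library at 63.0, and at 199.7 for Fdps, with the next at 113.9. Both are enzymes of the mevalonate route. The same library had the highest summed myeloid markers of its group (17006), a link that was not tested. Srebf2 was at 89.9 in Eμ-Myc library 1, with the next library at 74.2. Scd2 was at 80.4 in knockout library 1, below the next library at 103.9.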

How the results depend on the processing

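Of the 15 genes called in Eμ-Myc against WT, 11 were called in every alternative that tested them (Acat2, Mvk, Sqle, Ebp, Sc5d, Srebf2, Acaca, Fasn, Elovl6, Scd1 and Scd2); Acly, Idi1, Fdps and Srebf1 were lost in at least 1. The count of 15 ran from 12 to 20 over all alternatives, and the 7134 of all genes ran from 4899 to 9044. Quality weights gave both highest counts. The filter of at least 10 in every library called 12 of the 21 members that it tested. Genes near 0 changed sign. In Eμ-Myc against WT, scaling by total coverage gave Hmgcs1 -0.061, Cyp51 -0.0073, Dhcr7 -0.090 and Insig1 -0.020, and quality weights gave Hmgcs1 -0.12, Cyp51 -0.061 and Dhcr7 -0.010. Leaving out 1 library at a time gave ranges of -0.28 to 0.053 for Mvd, -0.059 to 0.064 for Dhcr7, -0.19 to 0.022 for Pmvk, -0.087 to 0.051 for Lss, -0.029 to 0.11 for Hmgcs1 and -0.0075 to 0.18 for Cyp51. In the knockout group against WT, total coverage gave Hmgcs1 -0.010 and Insig1 -0.075, quality weights gave Insig1 -0.11, and leaving out 1 library gave -0.014 to 0.13 for Hmgcs1 and -0.084 to 0.051 for Insig1. Without knockout libraries 1 and 2, Insig1 was -0.028; without 3 and 4, Mvd was 0.068 and, against Eμ-Myc, Fasn was -0.046. In the knockout group against Eμ-Myc, quality weights gave 13 of the 27 genes (12 higher, 1 lower) and 7228 of all genes, with weights of 0.0855 and 0.131 for knockout libraries 1 and 2 and 3.05 and 8.5 for 3 and 4; leaving out libraries 1 and 2 gave 4 and 3258, and leaving out 3 and 4 gave 305 of all genes. In the knockout group against WT, the 11 genes became 6 with no filter, 23 with quality weights (whose estimate did not converge), 17 without knockout libraries 1 and 2, 3 without 3 and 4, and 3 to 16 without 1 library. The 3981 of all genes became 3250 with no filter, 6225 with all 12 libraries in one fit, and 10656 with quality weights. They became 9132 and 1543 without the 2 pairs, and 684 to 6995 without 1 library.

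With the replicate block, the count was 0 of 27 and 1 of all genes in the knockout group against Eμ-Myc, as without it. In Eμ-Myc against WT it was 15 of 27 (10 higher, 5 lower) and 7305 of all genes. Against WT, same-numbered libraries of the knockout group did not all deviate together (r = 0.397, -0.423, 0.136 and -0.0627), nor did those of Eμ-Myc (0.23, -0.0966, 0.262 and 0.137), so they share only a number; the block gave 5 of 27, none of them lower, and 1905 genes in the knockout group against WT. The causes of these shifts were not tested. Since the files hold no read depth, low values such as the WT levels of Elovl6 (4.16 on average), Idi1, Lss, Hsd17b7 and Acaca carry a counting error that is not given.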
